A study of Mus musculus with 6 samples.

Results

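Potassium channel genes were taken as all genes whose symbol begins with Kcn and a further lower-case letter, and every ATAC-seq peak that the deposited annotation assigned to them was kept. This gave 96 genes of 21199 and 1677 peaks of 214414. ATAC-seq uses a transposase to cut and tag open chromatin, and a peak is a stretch with many such cuts. The libraries came from organoids, tumour cells grown as 3-dimensional cultures, of mouse non-small cell lung cancer. There were 3 libraries of organoids labelled resistant to immunotherapy and 3 of organoids labelled sensitive to it. The labels used here name no genotype, strain, agent, passage or clone for either group, and do not state whether the libraries of a group are separate cultures, so a p-value here speaks only of the scatter among 6 libraries and that scatter may be technical. Any other difference between the cultures cannot be told apart from resistance.

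Potassium channels are membrane pores that let potassium ions pass and so hold or restore the voltage across the membrane. The pore-forming subunits fall into families. The 2-pore-domain channels (Kcnk) carry a background leak, the voltage-gated channels (Kcna, Kcnb, Kcnc, Kcnd, Kcnh, Kcnq) open on depolarization, and the inward rectifiers (Kcnj) stabilize the resting voltage. Calcium- or sodium-activated channels (Kcnma, Kcnn, Kcnt and their relative Kcnu) form another family. The silent subunits (Kcnf, Kcng, Kcns, Kcnv) only modify other voltage-gated pores, and auxiliary subunits (Kcnab, Kcne, Kcnip, Kcnmb) bind to the pore. In airway epithelium, basolateral potassium channels such as Kcnq1 with Kcne3 and Kcnn4 provide the electrical drive for chloride secretion.

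The authors' deposited table gives, for each peak, the log2 fold change of resistant over sensitive organoids with its standard error (SE). Its title alone gives the direction, by which positive values mean more open chromatin in resistant organoids. Values after ± are SEs of that fit, with 3 libraries a group. A peak counts as called at an adjusted p under 0.05 in that table, where 102173 peaks have an adjusted p and are termed tested. The mean normalized count is the mean over all 6 libraries. Values per library were not used here, since the column names match no label, so whether the groups overlap cannot be given. The symbols were chosen with earlier results of this comparison known, and all counts of members are descriptions.

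Of the 1677 peaks, 725 were tested, and 89 of the 96 genes had at least 1 of them. The 7 genes with none were Kcna1, Kcnd2, Kcne1l, Kcnh7, Kcnj3, Kcnn2 and Kcnt2. By the authors' deposited table, resistant organoids had 14 of the 725 peaks higher and 40 lower, which is 7.45%, against 12.4% of all tested peaks. The share higher was 1.93%, against 5.02% of all tested peaks, and the share lower was 5.52%, against 7.34%. Chromosome 16 held 4806 of all tested peaks, and 47.6% of these were called, with a median log2 fold change of 0.75. Only 11 channel peaks lay on it, 0 of them higher and 5 lower (median -1.10). Shares without this chromosome are not given here, so its part in these differences was not tested. At an unadjusted p under 0.05 the counts were 43 higher and 64 lower. Among the called peaks 12 were at least 2-fold higher and 26 at least 2-fold lower. Shares of all tested peaks at these 2 thresholds are not given here, so these counts show nothing particular to the channels. Higher peaks made up 25.9% of these calls, while over all tested peaks 5124 of 12627 calls were higher. After subtraction of a running median along the mean count the channel share was 42.3%. The share over all tested peaks after that subtraction is not given here. The called peaks belonged to 31 genes, of which 9 had only higher, 21 only lower and 1, Kcnq1, both kinds. The share of all genes with a called peak is not given here, so these gene counts show nothing particular to the channels. Most channel peaks did not pass the threshold, and their median log2 fold change was -0.01, against -0.07 over all tested peaks. Each gene with a tested promoter was also represented by its promoter peak with the highest mean count, a promoter peak lying within 3 kb of a start. By the authors' deposited table, resistant organoids had 4 of 63 such promoters higher and 7 lower, which is 17.5%. Over the promoters of all 15490 genes 3.58% were higher and 13.9% lower, again 17.5% in all. The median was -0.11 for the channel promoters and -0.18 for all.

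**Figure D1:**
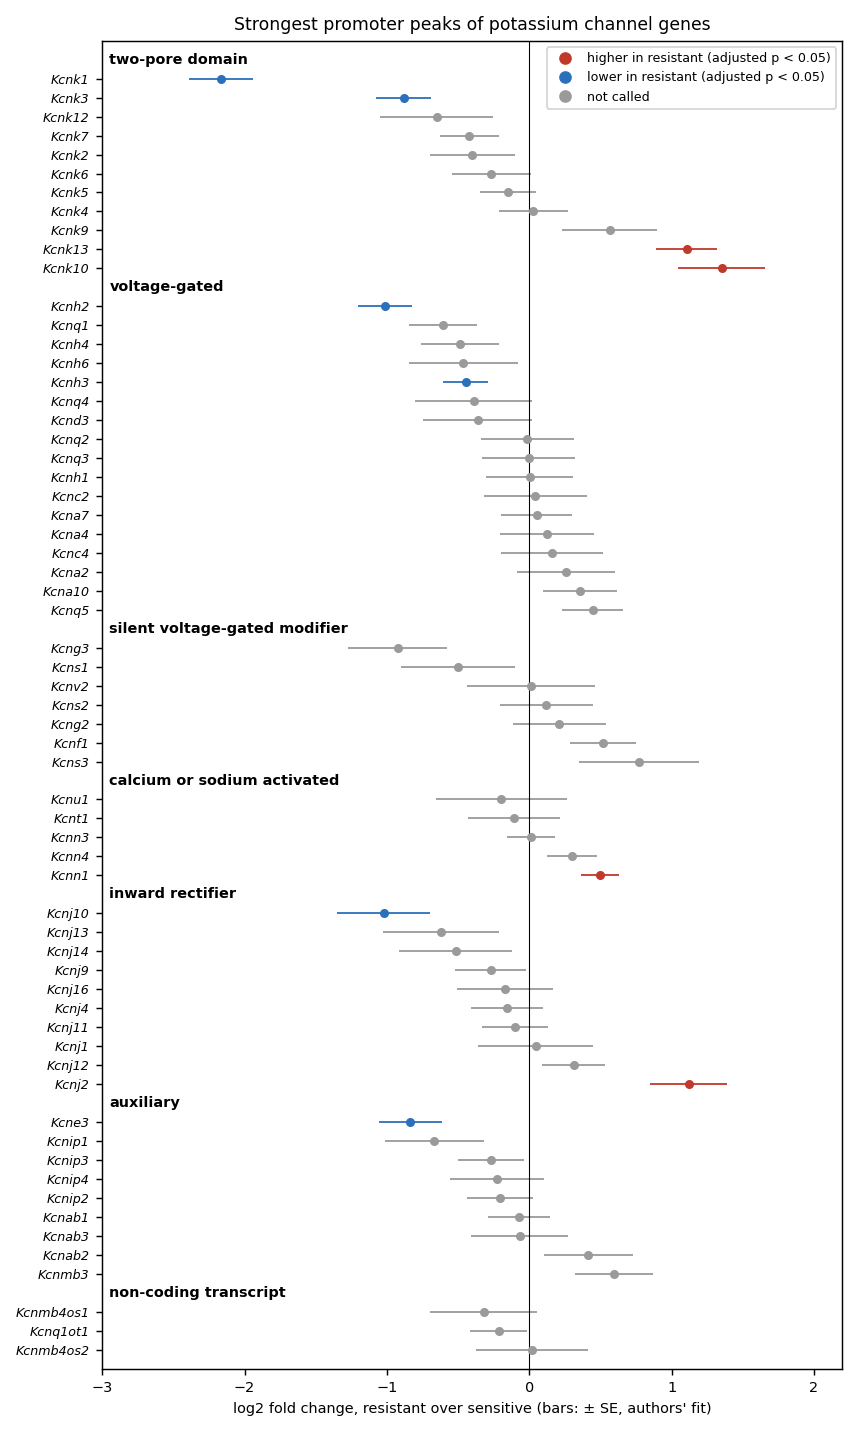
Log2 fold change of resistant over sensitive organoids (horizontal axis, bars ± SE of the authors' fit, 3 libraries a group) at the strongest promoter peak of each gene drawn, grouped by role. Kcnk1 lies farthest to the left at -2.17 and Kcnk10 farthest to the right at 1.35, and the 52 promoters that were not called are grey.

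The cells were checked against marker lists. All 13 epithelial marker genes, among them Epcam, Krt8 and Nkx2-1, had a tested promoter, with mean normalized counts of 87.2 to 785. Promoters of 8 of 13 neuronal and neuroendocrine genes were tested (15.3 to 118), of 11 of 12 muscle and fibroblast genes (15.6 to 108), of 5 of 8 endothelial genes (16.0 to 94.7) and of 2 of 10 immune genes (14.8 and 16.4). No promoter of the pan-leukocyte gene Ptprc or the T-cell gene Cd3e was tested. In the authors' deposited table all 13 epithelial promoters were lower in resistant organoids (median -1.14), against 13.9% of all promoters. Of the 11 muscle and fibroblast promoters 3 were higher and 0 lower (median 0.16), against 3.58% of all promoters higher. Of the 8 neuronal and neuroendocrine promoters 1, that of Chga, was higher in that table. No endothelial or immune promoter was called there. Of all 75 tested peaks of the endothelial genes, though, 1 was higher and 10 lower (14.7%, against 12.4% of all tested peaks). Of 14 tested peaks of the immune genes 0 were higher and 1 lower (7.14%). The epithelial genes had 0 of 81 tested peaks higher and 37 lower (45.7%). The muscle and fibroblast genes had 6 of 48 higher and 0 lower (12.5%), near the share of all tested peaks. The neuronal and neuroendocrine genes had 2 of 69 higher and 0 lower (2.9%). With the medians of 5 Mb windows subtracted, all 13 epithelial promoters were still called, and of the 4 higher promoters Pdgfrb was, at 1.41, while Col1a2, Myh11 and Chga, at 1.32, 0.0027 and 0.14, were not. The part of these markers in the channel results was not tested, and in bulk libraries fewer cells of a type and less open chromatin per cell cannot be told apart.

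Leak channels of the 2-pore-domain family had 4 of 11 promoters called, with 2 higher and 2 lower in resistant organoids (36.4%, against 17.5% of all promoters). Of these 4, the promoters of Kcnk3, Kcnk10 and Kcnk13 lost their call after subtraction of a regional median over 5 Mb. Of their 122 tested peaks the authors' deposited table has 4 higher and 13 lower (13.9%, against 12.4% of all tested peaks). Kcnk1, which encodes a weakly inward-rectifying leak subunit, was lower in resistant organoids at 5 of its 7 tested peaks. Its promoter peak on chromosome 8, 125994410 to 125998610 (mm10), had a log2 fold change of -2.17 ± 0.23 and an adjusted p of 1.1e-18 (DESeq2) in the authors' deposited table. This was 4.49-fold lower in resistant organoids, at a mean normalized count of 89.6, and the largest loss among the 725 tested peaks. An intronic peak 3.84 kb inside the gene was at -1.92 ± 0.34 in the authors' deposited table. The next called peaks, 9.75, 28.1 and 44.2 kb from the start, were at -1.15, -1.29 and -0.88 in that table. The other two tested peaks, 23014 and 48584 bp from the start, were at -0.69 and -0.11 there and were not called. The called peak 44.2 kb from the start lies 8.945 kb outside the gene's body. It lost its call after subtraction of the 5 Mb median, at -0.59. All 7 tested peaks of the gene were thus below 0, and the 2 nearest to the start had the lowest values. Kcnk3, an acid-sensitive leak channel, had a broad peak upstream of its start at -0.88 ± 0.19 (chromosome 5, 30611500 to 30619020) in the authors' deposited table.

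Kcnk2, a stretch- and heat-sensitive leak channel, had 2 lower intronic peaks, at -1.39 ± 0.30 and -1.02 ± 0.34 in the authors' deposited table, while its strongest promoter peak was at -0.40 and not called. Kcnk10, its close relative, gained at both of its tested promoter peaks, by 1.35 ± 0.30 (chromosome 12, 98576540 to 98579090) and 1.20 ± 0.34 in the authors' deposited table. Kcnk13, a leak subunit inhibited by halothane, gained 1.105 ± 0.22 at its promoter (chromosome 12, 99963980 to 99968360) and 1.27 ± 0.28 at a peak in an intron of its neighbour Tdp1, in the authors' deposited table. All 12 tested peaks of Kcnk13 were above 0, at 0.43 to 1.27 in that table, and the median of all tested peaks in the 5 Mb window that holds Kcnk10 and Kcnk13 was 0.89. Kcnk5, an alkali-activated channel of transporting epithelia, was lower at an intronic peak (-0.61 ± 0.20) and at an intergenic peak 40.5 kb upstream (-0.89 ± 0.25) in the authors' deposited table. Its promoter peak, at -0.15, was not called. Kcnk12 was lower at a peak 35.4 kb upstream (-1.41 ± 0.28) in the authors' deposited table. Kcnk9 had 45 tested peaks, of which 2 were lower, at -0.72 and -0.87 in the authors' deposited table, and both lie in introns of Trappc9. The promoters of Kcnk4, Kcnk6 and Kcnk7 were at 0.03, -0.27 and -0.42 there and not called.

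**Figure D2:**
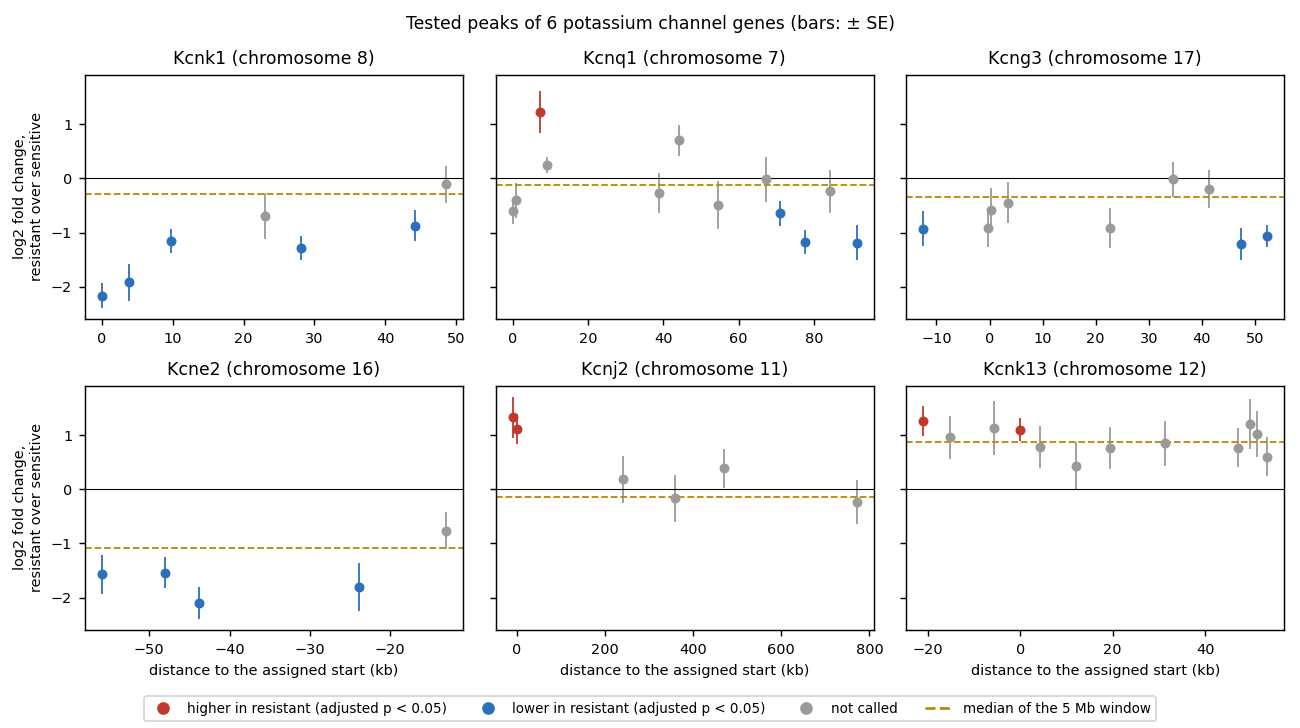
Log2 fold change (vertical axes, bars ± SE) of every tested peak of 6 genes against the distance in kb to the start it was assigned to, with the median of the 5 Mb window dashed. Kcnk1 peaks lie below 0, most of all next to the start at -2.17, and Kcnk13 peaks lie around their window's line at 0.89.

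Promoter sequences are printed for the called promoters with the largest changes, up to 3 in each direction, whose whole RefSeq window lies inside the peak. They show the DNA to which these changes refer. Each covers 250 bases before to 50 after the gene's start on GRCm38.p6, the assembly that mm10 names, and is written 5′ to 3′ on the gene's strand. Capitals mark matches, on either strand, to CAGGTG (an E-box bound by SNAI and ZEB factors), TGANTCA (AP-1), GGGCGG (the GC box, also as CCGCCC) and TATAAA (the TATA box).
Kcnk1 (chr8:125994852-125995151, + strand): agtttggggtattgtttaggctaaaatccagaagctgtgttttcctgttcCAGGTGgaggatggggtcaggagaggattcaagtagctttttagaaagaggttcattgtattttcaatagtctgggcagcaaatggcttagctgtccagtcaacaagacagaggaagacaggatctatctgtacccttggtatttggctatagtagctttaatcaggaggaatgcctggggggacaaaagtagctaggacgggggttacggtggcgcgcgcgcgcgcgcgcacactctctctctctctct
Kcne3 (chr7:100178433-100178732, + strand): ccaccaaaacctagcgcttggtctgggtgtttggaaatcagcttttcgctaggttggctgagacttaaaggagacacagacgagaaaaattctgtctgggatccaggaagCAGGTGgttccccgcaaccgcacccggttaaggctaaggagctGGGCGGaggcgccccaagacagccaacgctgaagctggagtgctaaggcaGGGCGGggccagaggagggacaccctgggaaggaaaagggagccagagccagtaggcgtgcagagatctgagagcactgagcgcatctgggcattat
Kcnk10 (chr12:98578164-98578463, - strand): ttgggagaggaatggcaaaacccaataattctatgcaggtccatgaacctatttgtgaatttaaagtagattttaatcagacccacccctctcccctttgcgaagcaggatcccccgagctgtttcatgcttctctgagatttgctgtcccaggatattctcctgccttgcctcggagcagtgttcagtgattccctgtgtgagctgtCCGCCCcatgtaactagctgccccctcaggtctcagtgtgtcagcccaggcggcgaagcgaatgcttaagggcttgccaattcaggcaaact
Kcnk13 (chr12:99964249-99964548, + strand): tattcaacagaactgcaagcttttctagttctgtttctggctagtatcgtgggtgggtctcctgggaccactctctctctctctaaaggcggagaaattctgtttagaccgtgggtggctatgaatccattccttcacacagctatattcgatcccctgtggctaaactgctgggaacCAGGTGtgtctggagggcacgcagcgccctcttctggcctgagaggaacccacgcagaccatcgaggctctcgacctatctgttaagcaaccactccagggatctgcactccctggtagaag
Kcnj2 (chr11:111065914-111066213, + strand): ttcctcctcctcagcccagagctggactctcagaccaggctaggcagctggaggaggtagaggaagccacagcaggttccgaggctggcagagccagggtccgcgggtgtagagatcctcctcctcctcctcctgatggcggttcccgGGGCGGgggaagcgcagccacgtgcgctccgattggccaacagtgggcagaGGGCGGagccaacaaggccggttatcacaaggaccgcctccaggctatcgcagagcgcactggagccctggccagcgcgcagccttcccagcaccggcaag

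Kcnk1 and Kcne3 were lower and the other 3 higher in resistant organoids. The windows of Kcnk1, Kcne3 and Kcnk13 held 1 E-box each, those of Kcne3 and Kcnj2 held 2 GC boxes each and that of Kcnk10 held 1. None of the 5 held the AP-1 or TATA letters. The Kcnk1 window ends in a run of alternating c and g followed by a ct repeat, just past the gene's start. Its ratio of observed to expected CpG was 0.59, and those of Kcne3, Kcnk10, Kcnk13 and Kcnj2 were 0.50, 0.36, 0.43 and 0.54. Of the 63 genes with a tested promoter, 22 had a RefSeq window that overlapped the peak. The E-box letters occurred in 31.8% of these 22 windows and in 20.2% of all 32851 windows in the RefSeq table. The GC box occurred in 54.5% of the 22 and in 35.7% of all. AP-1 letters were in 4.55%, against 7.81%, and TATA letters in 4.55%, against 13.6%. The CpG ratio had a median of 0.49 in the 22 windows and 0.38 in all. The 22 windows, unlike the full set, were picked for lying in an open peak, and their median GC content was 60.7%, against 52.7%. Where windows of a gene overlapped its peak equally, the one with the highest CpG ratio was kept. That choice can raise the CpG ratio, GC content and GC box share of the 22, so they are not compared like with like. The E-box share is 7 windows, and no difference in letters was tested. These are matches of letters and show no binding.

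Voltage-gated channels had 3 of 18 promoters lower and 0 higher in resistant organoids (16.7% called, against 17.5% of all promoters, of which 13.9% were lower). Of 208 tested peaks of these genes, the authors' deposited table has 3 higher and 9 lower (5.77%, against 12.4% of all tested peaks). Kcnh2, which carries the rapid repolarizing current of the heart, was lower at 2 adjoining promoter peaks (-1.01 ± 0.19 and -0.82 ± 0.28; chromosome 5, from 24345830 to 24353390) in the authors' deposited table. A 15941 bp wide intergenic domain assigned to Kcnh2 was at -0.47 ± 0.15 there. The brain channel Kcnh3 was lower at its broad promoter peak (-0.45 ± 0.16) in the authors' deposited table, and Kcnh1, a channel often found in tumours, was higher at an intronic peak (1.09 ± 0.38).

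Kcnq1, the pore that pairs with Kcne subunits in secreting epithelia, was the only gene called in both directions. An intronic peak 7.13 kb from its start gained 1.24 ± 0.39 (chromosome 7, 143116320 to 143117650) in the authors' deposited table. Farther in, 3 peaks at 70.9, 77.5 and 91.3 kb were at -0.64 ± 0.23, -1.17 ± 0.22 and -1.19 ± 0.33 in the authors' deposited table. Its strongest promoter peak was at -0.61 ± 0.24 there and was not called (adjusted p = 0.073, DESeq2). The antisense transcript Kcnq1ot1 runs through this gene, and a peak assigned to it inside Kcnq1 (chromosome 7, 143206130 to 143208140) was at -1.14 ± 0.40 in the authors' deposited table. That was the only called peak among 40 tested ones of the 4 non-coding transcripts that match the symbol rule. Kcna4, which carries an inactivating current, was lower at an intergenic peak 56.3 kb upstream (-1.47 ± 0.28) in the authors' deposited table, with its own promoter at 0.12 and not called. Kcna5 was higher at an intergenic peak 50032 bp away (1.12 ± 0.33) there. All 13 tested peaks of the brain channel Kcnh5, on chromosome 12, were above 0 and none was called. Their median was 0.58, against 0.53 over all tested peaks of that chromosome. Of the 42 tested peaks of Kcnq3 and the 14 of Kcnd3 none were called.

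Silent modifier subunits had 0 of 7 promoters called, against 17.5% of all promoters. Of their 85 tested peaks the authors' deposited table has 1 higher and 5 lower (7.06%, against 12.4% of all tested peaks). Kcng3 accounted for 3 of the lower ones, at 52.3 and 47.5 kb downstream of its start (-1.06 ± 0.20 and -1.21 ± 0.30) and 12455 bp upstream (-0.93 ± 0.32) in the authors' deposited table. Its promoter peak was at -0.93 ± 0.35 in that table and just missed the threshold (adjusted p = 0.059, DESeq2). All 9 tested peaks of Kcng3 were below 0. With windows subtracted the 3 called peaks were at -0.72, -0.87 and -0.59 and only the first kept its call (adjusted p = 0.0088, 0.061 and 0.43, normal test on the authors' DESeq2 errors), which it lost with the trend on mean count subtracted as well (0.053). Kcnv2, a modifier found in photoreceptors, was lower at peaks 4758 bp upstream (-1.23 ± 0.42) and 27.2 kb downstream (-0.63 ± 0.23) in the authors' deposited table. Kcnf1 was higher at a peak 6092 bp upstream (0.63 ± 0.22) there, while its promoter, at 0.52, was not called. With the window median subtracted the upstream peak was at 0.19 and its call was lost (adjusted p = 0.90, normal test on the authors' DESeq2 errors).

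Calcium- and sodium-activated channels had 1 of 52 tested peaks called (1.92%, against 12.4% of all tested peaks), the promoter of the small-conductance channel Kcnn1. That peak is 14301 bp wide (chromosome 8, 70860360 to 70874660), covers part of Ccdc124, and was at 0.50 ± 0.13 (mean normalized count 410) in the authors' deposited table. Kcnn4, the intermediate-conductance channel of airway epithelium, had 5 tested promoter peaks at -0.42 to 0.30 in the authors' deposited table, none called. Its strongest promoter peak was called higher with nearest peaks (0.53), with the trend on mean count (0.58) and with window and trend subtracted (0.59), though not with windows alone (0.41). The promoter of the voltage-gated Kcnq5, at 0.45 and not called in the authors' deposited table, was likewise called with these 3 corrections, at 1.06, 0.67 and 0.74. The 34 tested peaks of Kcnn3 lay at -0.63 to 0.71 and the 4 of the large-conductance pore Kcnma1 at 0.31 to 0.57 there, again with none called.

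Inward rectifiers had 1 higher and 1 lower promoter of 10 in resistant organoids (20.0%, against 17.5% of all promoters). Of their 44 tested peaks 2 were higher and 1 lower (6.82%, against 12.4% of all tested peaks). Kcnj2, a strong rectifier that sets the resting voltage of muscle, gained 1.12 ± 0.27 at its promoter (chromosome 11, 111064200 to 111067000; adjusted p = 0.00088, DESeq2) in the authors' deposited table. A peak 9294 bp upstream of it gained 1.33 ± 0.39 there, and the remaining 4 tested peaks, all more than 50 kb away, were at -0.24 to 0.39 and not called. Kcnj10, the rectifier of glia and kidney tubules, was lower at a peak 2300 bp from its start (-1.02 ± 0.33) in the authors' deposited table. The promoters of Kcnj9 and Kcnj11 were at -0.27 and -0.10 there and not called. On the distal part of chromosome 16, the 3 tested peaks of Kcnj15 were at 0.31, -0.77 and -1.1 and the single one of Kcnj6 at -0.03 in the authors' deposited table, none called.

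Auxiliary subunits had 1 of 9 promoters called (11.1%, against 17.5% of all promoters). Of their 174 tested peaks the authors' deposited table has 3 higher and 11 lower (8.05%, against 12.4% of all tested peaks). Of the Kcne subunits, which set the gating of Kcnq1, 6 of 15 tested peaks were lower and 0 higher (40.0%, against 7.34% of all tested peaks lower). Kcne3 was lower at its promoter (-0.83 ± 0.22; chromosome 7, 100177840 to 100182590) in the authors' deposited table, while an adjoining promoter peak was at 0.62 ± 0.39 and not called. The other 5 lie near the distal end of chromosome 16, in a 5 Mb window whose tested peaks had a median of -1.08. Kcne2, the partner of Kcnq1 in acid-secreting stomach cells, had 4 lower intergenic peaks 23.9 to 55.9 kb upstream, at -1.54 to -2.10 in the authors' deposited table. The lowest of them (chromosome 16, 92245800 to 92248570) was at -2.10 ± 0.30 there. Kcne1 was lower at a peak annotated to a 5′ UTR (-1.48 ± 0.46) in the authors' deposited table, at a mean normalized count of 16.0. No promoter peak of Kcne1 or Kcne2 was tested.

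Among the calcium-binding partners of Kcnd channels, Kcnip4 was lower 80.1 kb upstream of its start (-1.84 ± 0.27), Kcnip1 at 2 intronic peaks (-1.38 ± 0.27 and -0.81 ± 0.28) and Kcnip2 at a weaker promoter peak (-1.17 ± 0.31) in the authors' deposited table. Their strongest promoter peaks were not called. Among the subunits of large-conductance channels, the called peaks of Kcnmb2 and Kcnmb3 differed in direction, though most tested peaks of both genes were above 0. Kcnmb2 had 44 tested peaks, 32 of them above 0 (median 0.18) and 1 called lower, at -1.61 ± 0.25 (chromosome 3, 31884820 to 31888460). Kcnmb3 had all 5 above 0 (median 0.70) and was higher at 2, at 1.58 ± 0.28 (chromosome 3, 32496150 to 32497800) and 1.13 ± 0.29, in the authors' deposited table. Kcnab1, a cytoplasmic subunit of Kcna channels, was higher at 1 of 40 peaks (1.33 ± 0.40) there.

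**Figure D3:**
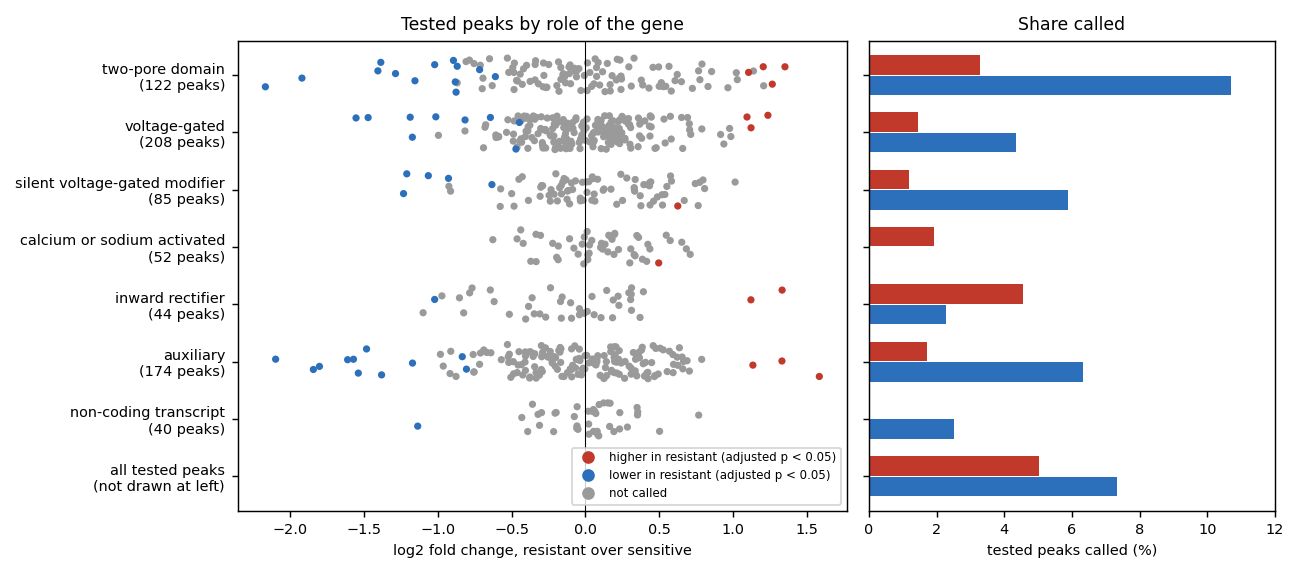
Left, log2 fold change of each of the 725 tested peaks by role of its gene, with called peaks in colour. Right, the share of tested peaks called in each direction, with all 102173 tested peaks in the lowest row. The 2-pore-domain genes had 10.7% of peaks lower, against 7.34% of all tested peaks.

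The share of channel peaks called moved with their strength and place. In the weakest quartile of mean count (14.7 to 18.8) 0.966% of channel peaks were called, against 2.90% of all tested peaks. In the strongest quartile (44.4 and above) these shares were 22.8% and 27.5%. The median count was 23.4 for channel peaks and 26.1 for all, and 18.2% of channel peaks lay in promoters, against 28.2% of all. Chromosomes 3 and 15 held 345 of the 725 channel peaks (47.6%, against 21.2% of all tested peaks). On these chromosomes 7 channel peaks were called (2.03%, against 4.14% of all tested peaks there). On the others 47 of 380 were called (12.4%, against 14.6%). Of the 54 called peaks 14 lay in promoters and 13 more than 50 kb from the start. The body of a protein-coding gene other than the assigned one was overlapped by 5 of them and lay nearer than the assigned gene's own body in 4. Bodies of non-coding genes were not searched, so these counts can miss other overlaps.

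Broad shifts of whole chromosome stretches touched some of these genes. The median of each 5 Mb window was subtracted from the fold changes and the normal test repeated with the deposited errors, which left 5.85% of all tested peaks past the threshold (1.9% higher, 3.95% lower). Of the 14 higher channel peaks 5 kept their call, and of the 40 lower ones 20. With newly called peaks counted too, 6 higher and 22 lower of the 725 channel peaks were called. With the trend on mean count subtracted as well, 5 and 19 kept their call. New calls included, 10 channel peaks were then higher and 19 lower, while 5.13% of all tested peaks were called (2.07% higher and 3.06% lower). After the window subtraction 1 higher and 2 lower channel promoters kept their call, where 8.35% of all promoters were called (1.71% higher and 6.64% lower). With the trend subtracted too, 1 and 2 again kept their call. New calls included, 3 of 63 channel promoters were then higher and 2 lower, while 6.53% of all promoters were called (2.4% higher and 4.13% lower). Kept with windows subtracted were the promoters of Kcnk1, at -1.88, and Kcnj2, at 1.257 (adjusted p = 1.2e-13 and 0.00028, normal test on the authors' DESeq2 errors). So were 3 other peaks of Kcnk1, both of Kcnk2 and of Kcnk5, both of Kcnmb3, the upstream peak of Kcnj2 and 3 of the 4 Kcnq1 peaks. The 2 promoter peaks of Kcnk10 and the 2 called peaks of Kcnk13 lie in a window with a median of 0.89 and were then at 0.22 to 0.47, none past the threshold. Of the 5 Kcne1 and Kcne2 peaks, in a window with a median of -1.08, 1 was kept, at -1.02. The promoters of Kcnh2, Kcnk3, Kcne3, Kcnh3, Kcnj10 and Kcnn1 were at -0.49, -0.33, -0.61, -0.33, -0.96 and 0.16 and no longer past the threshold. The Kcnn1 promoter was at -0.085 when the nearest peaks of other genes were subtracted, and the wide domain assigned to Kcnh2 was at 0.049 with windows subtracted, so neither direction held in every correction. The called peaks of Kcna5, Kcnab1, Kcnh1, Kcnk9 and Kcnq1ot1, the weaker one of Kcnip1 and the distant one of Kcnv2 also lost their call, at adjusted p values of 0.053 to 0.36 (normal test on the authors' DESeq2 errors). Those of Kcna4, Kcnip2, Kcnip4, Kcnk12 and Kcnmb2 kept it. Another 3 peaks, of Kcnf1, Kcnj15 and Kcnk5, were called only after the subtraction.

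**Figure D4:**
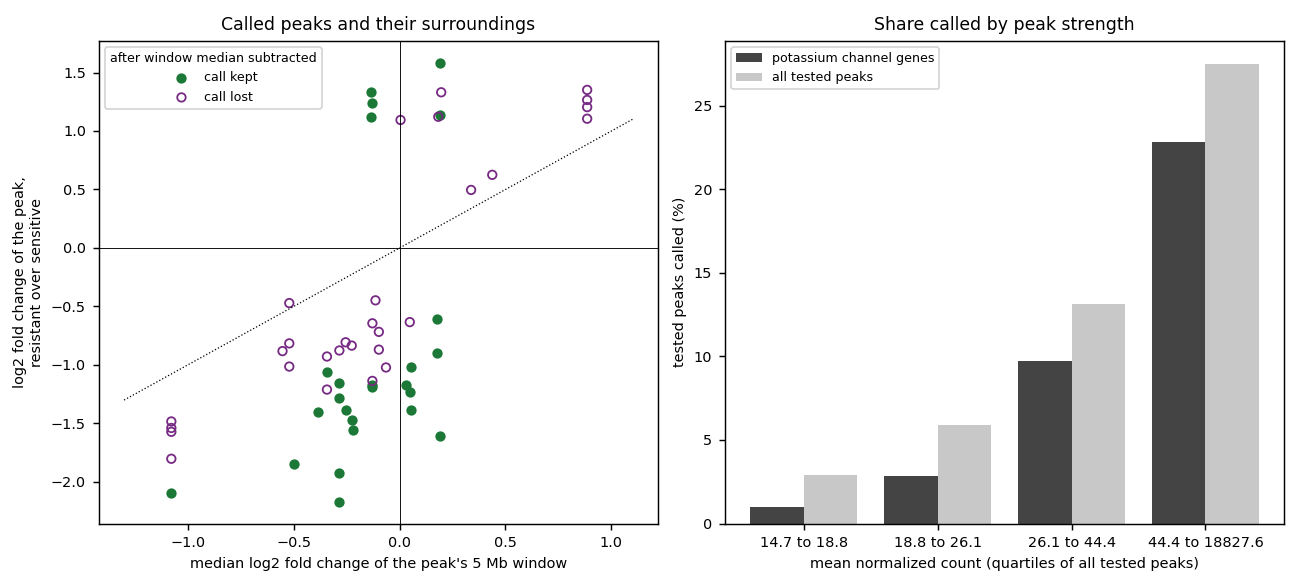
Left, log2 fold change of the 54 called peaks against the median of their 5 Mb window, with the dotted line where both are equal; filled points kept their call once the median was subtracted. Right, the share of tested peaks called by quartile of mean normalized count, for channel genes and for all tested peaks, where the strongest quartile gave 22.8% and 27.5%.

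Other genes of ion transport were listed for comparison. Among subunits and modulators that bind potassium channels but carry other names, 0 promoters were higher and 2 of 9 lower in the authors' deposited table, those of Abcc8, the sulfonylurea receptor (-0.68 ± 0.15), and the anchoring protein gene Ank3 (-0.63 ± 0.17). Of 21 promoters of potassium pumps and cotransporters, 0 were higher and 4 lower there, among them Slc12a3 (-0.77 ± 0.16), Atp4a (-0.88 ± 0.25) and Atp1b1 (-0.58 ± 0.18). Sodium channels had 1 of 8 promoters called, the epithelial sodium channel subunit Scnn1a (-0.98 ± 0.17), in the authors' deposited table. Calcium channels had 2 higher promoters, Cacna1a (1.05 ± 0.19) and Cacna1c (1.53 ± 0.44), and 1 lower, Cacna2d4 (-0.83 ± 0.27), of 18. With windows subtracted Cacna1a was at 0.18 and not called. Chloride channels had 1 higher, Best2 (1.18 ± 0.17), and 2 lower, Ano9 (-1.01 ± 0.27) and Clcn3 (-0.62 ± 0.19), of 19. With windows subtracted Best2 was at 0.32 and Clcn3 at -0.42, neither called, and the Atp4a promoter, at -0.66, was not called either. None of the 3 promoters of the HCN pacemaker channels was called in the authors' deposited table. Over all promoters 17.5% were called, and the median was -0.23 for partner subunits, -0.25 for pumps, -0.51 for sodium channels, -0.08 for calcium channels, -0.25 for chloride channels and 0.02 for HCN channels, against -0.18 for all promoters. At all their tested peaks, calcium channels had 53 of 281 higher and 3 lower (19.9%, against 12.4% of all tested peaks). Pumps and cotransporters had 0 of 116 higher and 14 lower (12.1%), and partner subunits 5 of 149 higher and 14 lower (12.8%). Sodium channels had 0 of 73 higher and 6 lower (8.22%), chloride channels 3 of 89 and 6 (10.1%), and HCN channels 0 of 13 called. These peak counts are not given with windows subtracted. No difference between these lists and the Kcn genes was tested.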

How the data were processed

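The members and gene lists were chosen with earlier results of these data known. Titles placed 3 libraries in the resistant and 3 in the sensitive group. The submitters' processing notes name DESeq2 1.26.0, ChIPseeker 1.22.1, featureCounts, R 3.6.1, deepTools, Bowtie2 2.2.1, GATK 4.1.3 and SAMtools 1.8, without saying what each did, and build mm10. How peaks were called, whether duplicates were removed and whether reads were shifted for the transposase is not given in the sources used here.

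The single table that the authors deposited is a finished comparison of 214414 peaks. For each peak the authors deposited the normalized count averaged over the libraries (a signal), a fold change and SE in log2 units, a Wald score, a p-value and an adjusted p-value from DESeq2, and width and distance in bp. Recomputing the Benjamini-Hochberg adjustment over the 102173 peaks with an adjusted p gave the deposited values. The 6 columns of values per library match no sample label and were not used, so counts were not refitted and the depth per library was not analysed here. Precision is that of the deposited SEs, whose median was 0.37 over the tested channel peaks.

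For the regional correction, 5 Mb windows with under 20 tested peaks took their chromosome's median. The alternatives were the 20 tested peaks nearest to each peak that belong to other genes, a running median over 2001 peaks ordered by mean count, and other filters, widths and thresholds. By rule the text names genes with a called promoter, up to 12 called peaks outside promoters in each direction above the median count, genes with 3 or more called peaks, the 3 genes with most peaks and genes with a tested promoter; other genes and peaks were named after their values were seen. A gene counted among the called promoters is not reported here by name and is not drawn in the plot of promoters. Versions were matplotlib 3.10.9, SciPy 1.17.1, NumPy 2.4.6 and pandas 2.3.3 under Python 3.11.15.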

Additional observations from a re-analysis of the deposited data

How the results depend on the processing

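The counts of called channel peaks depended on the processing. Higher and lower peaks, 14 and 40 in the authors' deposited table, were 6 and 22 with the 5 Mb window median subtracted, 9 and 23 with the 20 peaks of other genes lying nearest as the baseline, 22 and 30 with the mean count trend subtracted, and 10 and 19 with window and trend subtracted. At a mean count of at least 50 they were 4 and 21 (only peaks that strong can be called there), at an adjusted p under 0.01 they were 10 and 24, and with a 2-fold minimum 12 and 26. Higher and lower promoters, 4 and 7 in the authors' deposited table, were 1 and 2 with windows subtracted, 3 and 2 with nearest peaks or with window and trend subtracted, 7 and 6 with the trend alone, 3 and 4 for peaks up to 5 kb wide or with the 2-fold minimum, and 4 and 4 with the peak nearest to the start. With no filter on low counts, promoters within 1 kb or the non-coding transcripts left out, counts stayed within 1.5 times. Shares of all tested peaks called are given only for the authors' deposited table (12.4%), windows subtracted (5.85%) and window and trend subtracted (5.13%). Under the other settings, changes in the channel counts cannot be told apart from changes common to all peaks. The wide domain assigned to Kcnh2 was at 0.049 with windows and 0.28 with window and trend subtracted, and the Kcnn1 promoter at -0.085 with nearest peaks subtracted. Neither was past the threshold then, and the cause was not tested. The other 52 called peaks kept their sign under every correction run. No paired analysis was possible because the columns per library carry no sample label, and for the same reason edgeR fits and fits without single libraries were not run. Of the 1677 channel peaks 952 had no adjusted p in the authors' deposited table, and these enter only the alternative without a filter on low counts. That alternative added 3 higher and 1 lower call and ended 2 higher and 10 lower ones.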
